A study of Mus musculus with 6 samples.

Results

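The SLC25 family is the set of mitochondrial carriers, membrane proteins that move metabolites between the cytosol and the mitochondrial matrix. The genes described here are those whose symbol begins with Slc25a followed by digits. The deposited counts list 44 such symbols among 23284 gene symbols, and 33 of the 44 had a mean of at least 1 CPM (counts scaled to library totals of equal size) over the 6 libraries. All libraries are of MIN6, an insulinoma cell line of the mouse that stands in for the pancreatic beta cell. Of these, 3 were from cells given a control antisense oligonucleotide (control KD) and 3 from cells given an oligonucleotide against Paupar (Paupar KD), a long noncoding RNA transcribed beside Pax6. Both groups thus carry an oligonucleotide, and the labels give no dose, time or culture of origin for either. The p-values therefore rest on how much these libraries differ among themselves, and that variation may be technical.

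Most SLC25 proteins sit in the inner mitochondrial membrane and exchange a solute on one side for another on the other side, among them nucleotides, phosphate, di- and tricarboxylates, amino acids, cofactors and metal ions. In beta cells, glucose is burned largely in mitochondria and the ATP made there closes the potassium channels that hold insulin release in check. Carriers that pass reducing equivalents inward, and citrate, malate and glutamate outward, are therefore often studied in the coupling of glucose to insulin secretion.

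No SLC25 gene passed the test between Paupar KD and control KD. Of the 33 genes, 0 were higher and 0 lower at an adjusted p under 0.05 (edgeR quasi-likelihood test, Benjamini-Hochberg adjustment over 13039 tested genes), against 0.046% of all tested genes (0.0383% higher and 0.00767% lower). At an unadjusted p under 0.05 there were 4 higher and 5 lower genes of the family, 27.3% of it against 17.7% of all tested genes (9.63% higher and 8.11% lower). The groups did not overlap for 11 genes, 33.3% of the family against 27.1% of all tested genes. Of these, 5 were higher in Paupar KD (13.7% of all tested genes were) and 6 lower (13.3%). DESeq2 called 0 higher and 1 lower (all tested genes: 3.9%, with 2.11% higher and 1.79% lower), and limma-voom with library quality weights called 3 higher and 3 lower (13% of all tested genes). Without Paupar KD replicate 3, edgeR called Slc25a38 higher (adjusted p = 0.0426) and Slc25a27 lower (adjusted p = 0.0494), where it called 4.65% of genes higher and 5.67% lower. Without Paupar KD replicate 1 it called 0 SLC25 genes, where 0.934% of genes were called higher and 0.972% lower. The log2 fold changes of the 33 genes ran from -0.61 to 0.37, with 20 positive (60.6%, against 51% of all tested genes) and 13 negative, and their median was 0.05 against 0.01 over all tested genes. The summed level of the 44 symbols was 2956 ± 24.3 CPM in the controls against 3059 ± 192 CPM after Paupar KD (SD, n = 3 per group), and replicates 1, 2 and 3 of the latter gave 3278, 2920 and 2980 CPM. In such bulk samples, fewer cells of a type and less RNA per cell cannot be told apart.

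**Figure D1:**
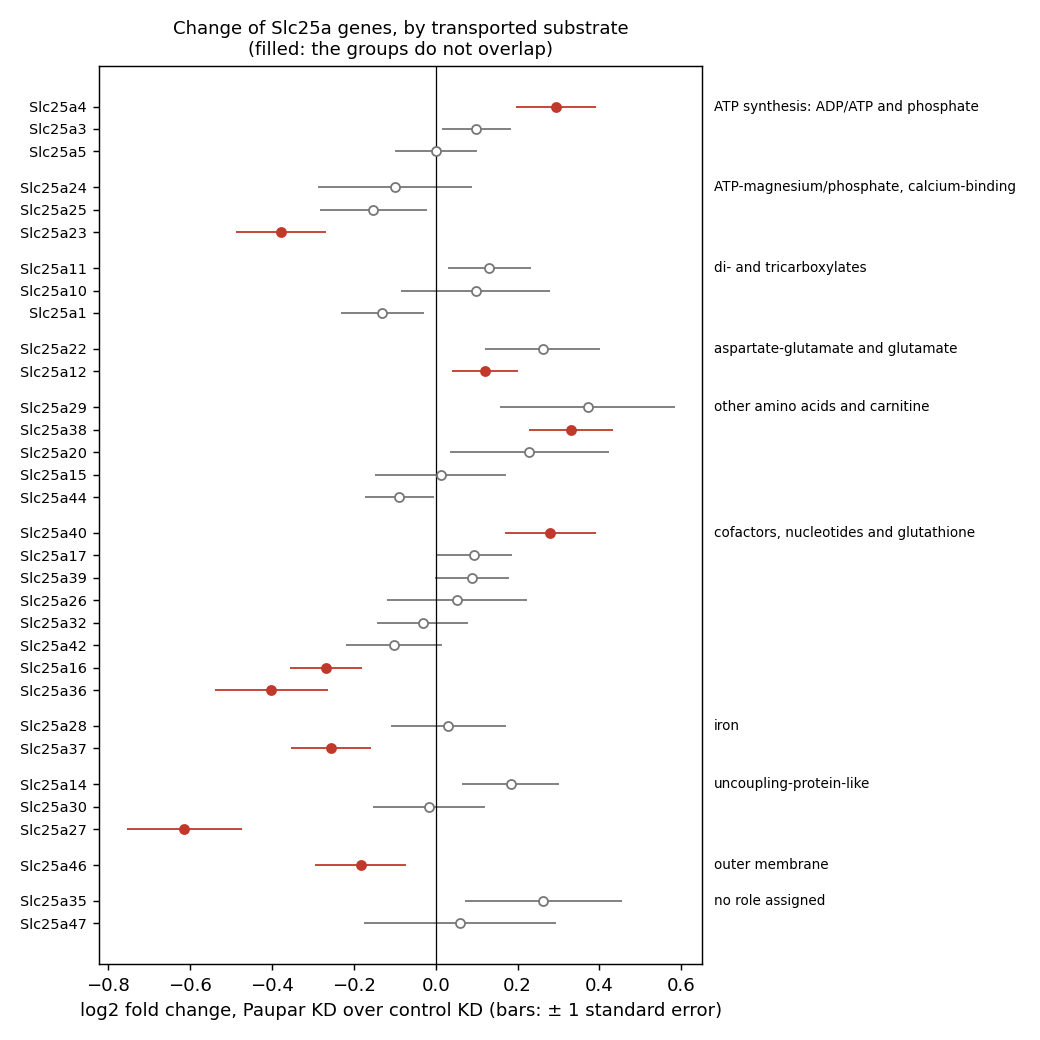
Log2 fold change of 32 of the 33 SLC25 genes, Paupar KD over control KD, with bars of 1 standard error, grouped by what the carrier transports. Filled points are 10 of the 11 genes whose groups do not overlap. They range from Slc25a27 at -0.61 to Slc25a38 at 0.33, and none passed the adjusted threshold.

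The libraries themselves differed in depth and in how alike they were. Totals were 22463557 to 28693863 counts in control KD and 16973622 to 23434166 counts in Paupar KD. Pearson correlations of log2 CPM across genes were 0.997 between controls and 0.976 to 0.990 between Paupar KD libraries, and Paupar KD replicate 1 stood farthest from the controls (0.977 to 0.979). The symbol Paupar is not in the counts, so the knockdown was not measured. Of 10 beta cell markers 10 were tested, with a summed level of 30616 to 34672 CPM in the controls against 36287 to 54764 CPM after Paupar KD, mostly Ins2, Iapp and Ins1. The log2 fold change was positive for 8 of the 10. Ins2 (15989 ± 1421 and 21907 ± 5657 CPM) and Iapp (8373 ± 362 and 9425 ± 828 CPM) were higher without overlap. Slc30a8 was lower without overlap (471 ± 13.0 and 386 ± 35.9 CPM). Of all tested genes, 13.7% were higher and 13.3% lower without overlap. Of 9 alpha and delta cell markers 3 were tested and 2 were at 0 counts, with sums of 804 to 864 CPM in the controls against 883 to 1064 CPM after Paupar KD, mostly Ttr. Of 12 acinar and duct markers 7 were at 0 counts, with sums of 50.1 to 60.3 CPM in the controls against 60.7 to 128 CPM after Paupar KD, mostly Spp1. Spp1 was at 53.3, 53.0 and 123 CPM in Paupar KD replicates 1 to 3, against 43.7 to 54.2 CPM in the controls. Cela1 was lower without overlap (1.34 ± 0.25 and 0.78 ± 0.18 CPM). Of 14 mesenchymal, endothelial and immune markers 4 were at 0 counts, and the sums were 4.26 to 4.92 CPM in the controls against 3.37 to 3.95 CPM after Paupar KD. Cd68 was lower without overlap (2.46 ± 0.022 and 1.10 ± 0.35 CPM, edgeR adjusted p = 0.133). DESeq2 called Cd68 lower and 0 genes of the other marker lists (3.9% of all tested genes). Limma-voom with quality weights called Cd68 lower, Ttr higher, and 1 beta cell marker higher and 2 lower (13% of all tested genes). The part of these lists in the SLC25 values was not tested.

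The SLC25 genes of MIN6 cells covered a wide range of levels. Levels between genes are compared as CPM per kilobase of annotated exons, with exon lengths from the GENCODE M1 annotation of mm9. A length takes in all annotated exons of a gene, 5.55 kb for Slc25a3, 1.646 kb for Slc25a5 and 2.353 kb for Slc25a4. The order depends on these lengths. In CPM, Slc25a3 was above both in control KD, at 447 ± 7.74 against 389 ± 15.5 (Slc25a5) and 389 ± 14.1 CPM (Slc25a4). The highest in control KD was Slc25a5 at 237 ± 9.40 CPM per kilobase (SD, n = 3), followed by Slc25a4 at 165 ± 6.003. Slc25a3 at 80.5 ± 1.40 and Slc25a39 at 80.4 ± 2.80 came next and overlapped each other, and Slc25a11 followed at 57.7 ± 1.72 CPM per kilobase. The lowest of the 33 were Slc25a35 at 1.596 ± 0.14 and Slc25a47 at 1.42 ± 0.15 CPM per kilobase, and these overlapped as well. The same 5 genes stood highest, in the same order, in Paupar KD.

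**Figure D2:**
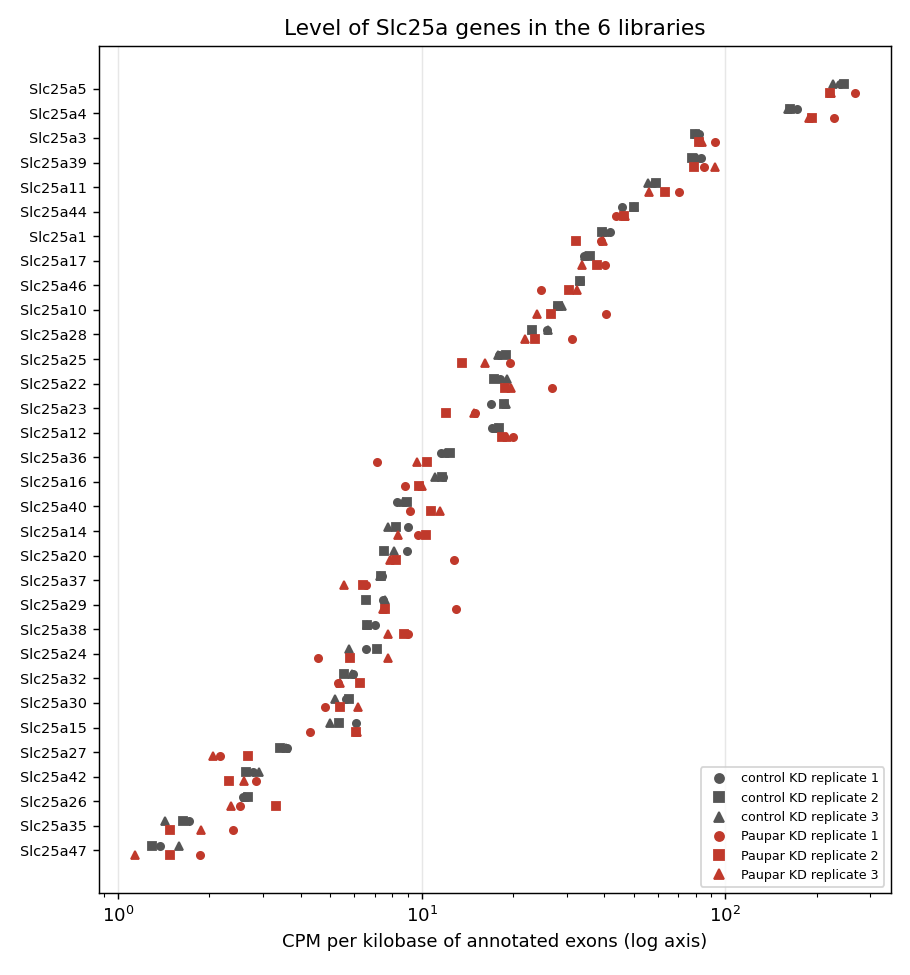
Level of 32 of the 33 SLC25 genes in every library, as CPM per kilobase of annotated exons on a log axis, grey for control KD and red for Paupar KD. In control KD the genes run from 1.42 to 237 CPM per kilobase, and the red points of Paupar KD replicate 1 often lie outside the others.

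The threshold of 1 CPM lay in a gap of the family. Slc25a47, just inside it, had a mean of 2.30 CPM, and Slc25a33, just outside, had 0.57 CPM, which was enough counts to be tested (edgeR adjusted p = 0.992). The other 10 symbols under it had means of 0.14 CPM or less and were not tested. Slc25a13, Slc25a21 and Slc25a43 had 0 counts in every library, as did 25.3% of all gene symbols. A count of 0 allows up to 3 counts, which is 0.105 to 0.177 CPM in these libraries and covers counting error only. Slc25a31, the ADP/ATP carrier known from the testis, had 1 count in 1 library.

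The genes of ATP synthesis carried the largest share of the family. Slc25a4 and Slc25a5 encode the ADP/ATP carriers ANT1 and ANT2, which export ATP from the matrix in exchange for ADP, and Slc25a3 encodes the carrier that imports phosphate. Slc25a3, Slc25a4, Slc25a5 and Slc25a31 together were at 1225 ± 29.5 CPM in the controls against 1346 ± 123 CPM after Paupar KD, 41.5% and 44.0% of the summed SLC25 level. Because Slc25a4 and Slc25a5 encode near copies of the same protein, their coding sequences are shown to make plain how far reads of the 2 genes can be told apart. Each has 897 coding bases, of which 77.5% are identical at the same position, and the longest shared run is 20 bases, at coding bases 322 to 341. In the stretches below, taken 5′ to 3′ from the spliced GENCODE M1 transcripts of mm9, capitals mark bases that differ between the genes. Bases 286 to 375 hold that longest run, between 19 differences:
Slc25a4: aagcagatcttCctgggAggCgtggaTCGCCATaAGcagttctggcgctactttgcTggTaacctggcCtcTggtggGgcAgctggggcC
Slc25a5: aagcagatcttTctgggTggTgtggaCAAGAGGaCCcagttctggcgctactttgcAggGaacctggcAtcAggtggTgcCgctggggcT
Bases 397 to 486 are the 90-base stretch with the most differences, 33:
Slc25a4: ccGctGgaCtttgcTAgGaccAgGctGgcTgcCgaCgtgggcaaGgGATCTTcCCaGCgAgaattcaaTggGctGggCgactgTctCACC
Slc25a5: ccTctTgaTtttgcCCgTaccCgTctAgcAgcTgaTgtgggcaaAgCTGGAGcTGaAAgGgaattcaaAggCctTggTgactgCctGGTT

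Copies elsewhere in the genome set a different limit for the 2 genes. Every 50-base window of each coding sequence was looked up in mm9 outside the gene's own span, on both strands, since the read length is not given in the sources used here. For Slc25a4, 0 of 848 windows had an exact copy, whereas for Slc25a5 63.9% did, with up to 5 copies of 1 window. Of the 33 genes, 29 had no copied window, and the other 4 were Slc25a5, Slc25a36 (71.1%), Slc25a40 (29.2%) and Slc25a3 (5.93%). Levels and changes of these 4 genes are uncertain, because reads that fit more than 1 place may have been left out or divided, and how the counting treated them is not given in the sources used here. Untranslated parts of exons were not searched, and neither were inexact copies, to which reads can also align. Such copies remain unknown for all 33 genes, Slc25a4 among them.

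Slc25a4 (chromosome 8, 47292151 to 47296638 of mm9) was at 405, 384 and 379 CPM in the 3 controls and at 534, 453 and 445 CPM in Paupar KD replicates 1 to 3. All 3 Paupar KD libraries lay above the 3 controls, and replicate 1 was highest. The mean was 1.23 times the control mean (log2 fold change 0.29 ± 0.10 SE, edgeR adjusted p = 0.217). Slc25a5 (chromosome X, 34335646 to 34338802) was at 392.1, 403.5 and 372.9 CPM in control KD and at 438, 364 and 367 CPM in Paupar KD. Its groups overlapped and their means were 389 ± 15.5 and 390 ± 42.0 CPM (edgeR adjusted p = 0.998). Slc25a3 (chromosome 10, 90579319 to 90586804) was at 456, 442 and 443 CPM in control KD and at 515, 454 and 466 CPM in Paupar KD. These groups overlapped, with replicate 1 again highest (log2 fold change 0.10 ± 0.09 SE, edgeR adjusted p = 0.555).

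The ratio of the 2 ADP/ATP carrier genes separated the groups with little spread. Slc25a4 over Slc25a5, per kilobase, was 0.723, 0.666 and 0.710 in the controls and 0.853, 0.870 and 0.848 in the Paupar KD libraries. The Paupar KD libraries lay close together in the ratio, although replicate 1 was the highest in the level of both genes. The ratio was 1.23 times higher in Paupar KD in 3 of 3 libraries (two-sided exact permutation test, p = 0.1, the smallest that 3 against 3 libraries allow; 0.2 after Benjamini-Hochberg adjustment over 4 such pairs of paralogs). Library scaling does not enter this ratio, but the copied windows of Slc25a5 do.

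**Figure D3:**
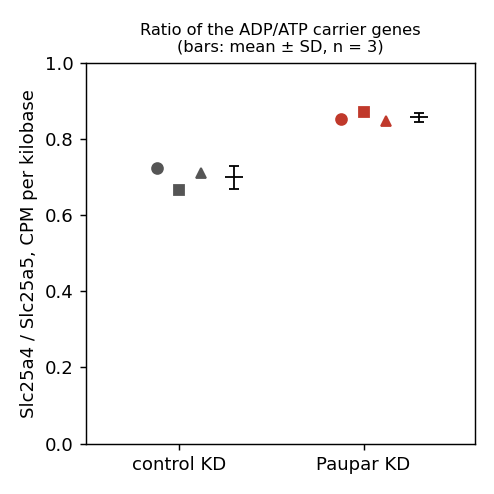
Ratio of Slc25a4 to Slc25a5 in CPM per kilobase, a point for each library with mean ± SD (n = 3 per group) beside them. The controls lie at 0.666 to 0.723 and the Paupar KD libraries at 0.848 to 0.870.

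The 3 tested carriers of ATP-magnesium and phosphate, which bind calcium, all had negative log2 fold changes. Of these, 0 of 3 passed in edgeR or DESeq2. Limma-voom with quality weights called Slc25a23 (adjusted p = 0.0049) and Slc25a25 (adjusted p = 0.028) lower, and Slc25a24 turned to 0.060 without Paupar KD replicate 1. Slc25a23, Slc25a24 and Slc25a25 encode carriers that exchange ATP-magnesium for phosphate and are switched on by cytosolic calcium, which adjusts the pool of adenine nucleotides in the matrix. Slc25a23 (chromosome 17, 57183134 to 57199286) was at 89.5, 98.6 and 100.2 CPM in control KD and at 79.5, 63.7 and 78.7 CPM in Paupar KD replicates 1 to 3. All Paupar KD values lay below the controls, with replicate 2 lowest. The means were 96.1 ± 5.76 and 74.0 ± 8.90 CPM (log2 fold change -0.38 ± 0.11 SE, edgeR adjusted p = 0.173). Its exons share 168 bases with Gm17168 on the other strand. Slc25a25 was at 84.5 ± 2.63 and 76.1 ± 13.7 CPM and Slc25a24 at 22.3 ± 2.32 and 20.7 ± 5.53 CPM, with overlapping groups for both. Exons of Slc25a25 share 379 bases with Naif1 on the other strand. With the strand setting unknown, reads in such shared parts cannot be told apart.

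Carriers of di- and tricarboxylates overlapped between groups. Slc25a1 encodes the citrate carrier, which supplies acetyl units to the cytosol, and was at 88.0 ± 2.43 CPM in the controls against 80.4 ± 9.08 CPM after Paupar KD. Slc25a11, the oxoglutarate-malate carrier of the malate-aspartate shuttle, was at 124, 125 and 118 CPM in control KD and at 149, 134 and 119 CPM in Paupar KD, with replicate 3 among the controls. Slc25a10, the dicarboxylate carrier, was at 96.4, 97.2 and 100.4 CPM in control KD and at 140.1, 92.2 and 82.7 CPM in Paupar KD replicates 1 to 3. Replicate 1 of Slc25a10 thus lay above all controls and replicates 2 and 3 below them, and the log2 fold change turned from 0.10 to -0.17 without replicate 1. Slc25a21, the oxodicarboxylate carrier, was at 0 counts. Exons of Slc25a11 share 189 bases with Rnf167, and those of Slc25a10 share 228 with Gm11788, both on the other strand.

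Of the aspartate-glutamate carriers, only Slc25a12 had counts. These calcium-regulated carriers export aspartate in the malate-aspartate shuttle, and Slc25a12 (aralar) was at 125.5, 132.3 and 129.96 CPM in control KD and at 147, 135 and 140 CPM in Paupar KD. The Paupar KD values were all higher, at 1.09 times the control mean, with replicate 2 close to the highest control (log2 fold change 0.12 ± 0.08 SE, edgeR adjusted p = 0.447). Its paralog Slc25a13 (citrin), known from liver, was at 0 counts in all 6 libraries, and Slc25a18 had a mean of 0.0894 CPM. Slc25a22, the other glutamate carrier, was at 73.0, 70.1 and 77.3 CPM in control KD and at 108.8, 76.2 and 79.4 CPM in Paupar KD replicates 1 to 3. Its groups overlapped, and replicate 1 stood far above the other 5 libraries (log2 fold change 0.26 ± 0.14 SE, edgeR adjusted p = 0.354).

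Among carriers of other amino acids and of carnitine, 4 of 5 had positive log2 fold changes and 0 passed in edgeR. Of the 4, Slc25a20 was at -0.030 without Paupar KD replicate 1. Slc25a15 was at -0.072 without Paupar KD replicate 2 and at -0.071 without replicate 3. It was also at -0.012 without control KD replicate 2 and at -0.053 without control KD replicate 3. Slc25a38 (chromosome 9, 120019492 to 120033622) imports glycine for heme synthesis. It was at 19.4, 18.2 and 18.2 CPM in control KD and at 24.76, 24.005 and 21.36 CPM in Paupar KD replicates 1 to 3. All Paupar KD values lay above the controls, at 1.26 times the control mean (log2 fold change 0.33 ± 0.10 SE, edgeR adjusted p = 0.192). Slc25a29, a carrier of basic amino acids, had the highest log2 fold change of the family, 0.37 ± 0.21 SE, but from 1 library: it was at 33.7 CPM in Paupar KD replicate 1 and at 17.1 to 19.8 CPM in the other 5. Slc25a20, the carnitine-acylcarnitine carrier of fatty acid oxidation, was likewise at 22.8 CPM in that library and at 13.41 to 15.985 CPM elsewhere. Slc25a15, the ornithine carrier, was at 18.9 ± 1.92 and 19.0 ± 3.64 CPM, and Slc25a44, a carrier of branched-chain amino acids, at 176 ± 9.37 and 165 ± 6.32 CPM.

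The 9 expressed carriers of cofactors, nucleotides and glutathione went both ways, with 5 positive and 4 negative log2 fold changes and 0 calls in edgeR. Of these, Slc25a26 turned to -0.12 without Paupar KD replicate 2. Slc25a32 turned to 0.0052 without Paupar KD replicate 1 and to 0.0027 without replicate 3. Slc25a16, linked to coenzyme A in the matrix, was at 56.4, 55.8 and 53.3 CPM in control KD and at 42.21, 47.18 and 47.996 CPM in Paupar KD. Every Paupar KD library was lower (log2 fold change -0.27 ± 0.09 SE, edgeR adjusted p = 0.214). Slc25a42, which also serves coenzyme A import, was at 16.6 ± 0.83 and 15.5 ± 1.58 CPM with overlap.

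Slc25a36 and Slc25a33 encode carriers of pyrimidine nucleotides, needed for mitochondrial DNA and RNA. Slc25a36 (chromosome 9, 96976016 to 97011576) was at 78.5, 84.5 and 80.9 CPM in control KD and at 48.5, 70.5 and 65.5 CPM in Paupar KD replicates 1 to 3. The groups did not overlap and replicate 1 was lowest (log2 fold change -0.40 ± 0.14 SE, edgeR adjusted p = 0.223). Without replicate 1 the log2 fold change was -0.26. This is the gene with the largest share of copied windows in the family. Its paralog Slc25a33 stayed under 1 CPM in each library, at 0.35 to 0.90 CPM, and the ratio of the 2 genes per kilobase overlapped between groups (two-sided exact permutation p = 0.8). Exons of Slc25a33 share 281 bases with Gm13068 on the other strand.

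Slc25a39 and Slc25a40 encode the carriers that bring glutathione into mitochondria. Slc25a39 was at 229, 214 and 222 CPM in control KD and at 233.6, 217.9 and 255.7 CPM in Paupar KD, which overlapped (edgeR adjusted p = 0.628). Slc25a40 was at 22.98, 24.90 and 24.044 CPM in control KD and at 25.35, 29.87 and 32.04 CPM in Paupar KD. Its groups were apart, though replicate 1 lay only just above the highest control (log2 fold change 0.28 ± 0.11 SE, edgeR adjusted p = 0.258). Per kilobase Slc25a39 stood 9.34 ± 0.70 times above Slc25a40 in control KD and 8.23 ± 0.98 times in Paupar KD, and these ratios overlapped (two-sided exact permutation p = 0.2, adjusted 0.267). Some other carriers of this class overlapped between groups. They were Slc25a17, a peroxisomal carrier of coenzyme A and related cofactors (58.1 ± 1.31 and 62.0 ± 5.50 CPM), Slc25a26 for S-adenosylmethionine (5.05 ± 0.097 and 5.23 ± 0.99 CPM) and Slc25a32 for folate (17.0 ± 0.61 and 16.7 ± 1.57 CPM). Exons of Slc25a26 share 120 bases with Lrig1 on the other strand.

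The mitoferrins, which bring iron into the matrix for heme and iron-sulfur clusters, differed from each other in pattern. Slc25a37 (mitoferrin-1, chromosome 14, 69859908 to 69903160) was at 30.8, 30.7 and 30.5 CPM in control KD and at 27.3, 26.7 and 23.1 CPM in Paupar KD. The controls were nearly equal (30.7 ± 0.18 CPM) and all Paupar KD values lay below them (log2 fold change -0.26 ± 0.10 SE, edgeR adjusted p = 0.251). Slc25a28 (mitoferrin-2) was at 39.2, 35.1 and 39.5 CPM and at 47.3, 35.9 and 33.2 CPM, with replicate 1 alone above the controls. Slc25a28 over Slc25a37, per kilobase, was 3.14 to 3.56 in control KD and 3.70 to 4.77 in Paupar KD, without overlap (two-sided exact permutation p = 0.1, adjusted 0.2).

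Of the carriers named after uncoupling proteins, Slc25a27 had the lowest log2 fold change and the smallest p of the whole family. Slc25a27 (UCP4, chromosome 17, 43778849 to 43804125), best known from neurons, was at 10.2, 9.71 and 10.2 CPM in control KD and at 6.19, 7.63 and 5.88 CPM in Paupar KD replicates 1 to 3. All Paupar KD libraries lay below all controls, at 0.654 of the control mean (log2 fold change -0.61 ± 0.14 SE, edgeR adjusted p = 0.134). No single library set the difference, since the log2 fold change was -0.74 to -0.53 when any 1 library was left out. DESeq2 called it lower (adjusted p = 0.0176), the 1 SLC25 gene it called, where DESeq2 called 3.9% of all tested genes. Slc25a14 (UCP5) was at 19.7 ± 1.46 and 22.4 ± 2.40 CPM and Slc25a30 at 9.45 ± 0.52 and 9.31 ± 1.183 CPM, both with overlap.

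Slc25a46, which lies in the outer membrane and is known for its part in mitochondrial fission and lipid transfer, had the tightest controls of the family. It was at 148.1, 148.2 and 148.7 CPM in control KD and at 110.3, 136.9 and 144.8 CPM in Paupar KD replicates 1 to 3. All Paupar KD values were lower, replicate 1 by far the most (log2 fold change -0.18 ± 0.11 SE, edgeR adjusted p = 0.407). Its exons share 471 bases with B930094E09Rik on the other strand. Slc25a35 and Slc25a47, given no substrate here, were at 5.87 ± 0.53 and 7.055 ± 1.66 CPM and at 2.24 ± 0.24 and 2.37 ± 0.57 CPM. Of the exons of Slc25a35, 1151 bases are shared with Rangrf on the other strand.

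**Figure D4:**
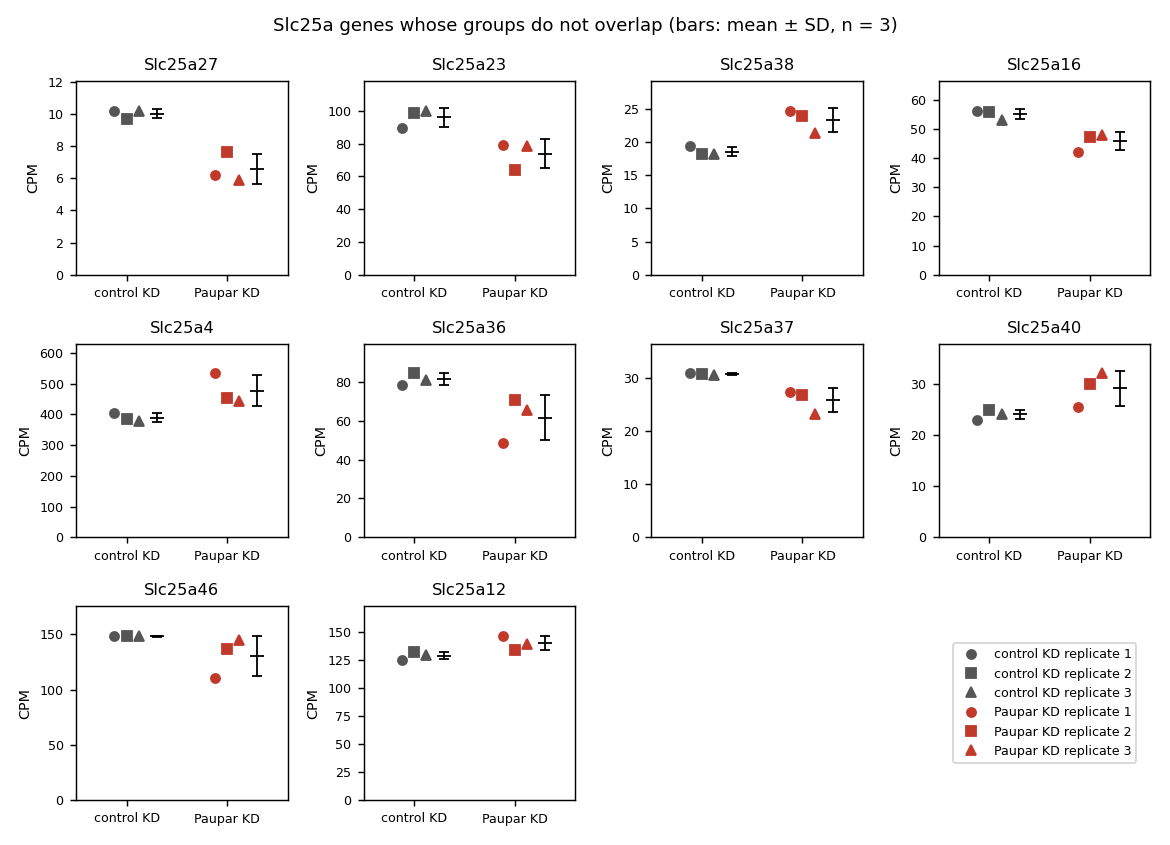
CPM of 10 of the 11 SLC25 genes whose groups do not overlap, a panel for each, with a point per library and mean ± SD (n = 3 per group). Slc25a4, Slc25a12, Slc25a38 and Slc25a40 are higher in Paupar KD and the other 6 lower, and the Paupar KD points are mostly wider spread than the controls.

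Spread within Paupar KD was larger than within control KD for 32 of the 33 genes, the exception being Slc25a44. The median coefficient of variation was 3.68% in control KD and 11.7% in Paupar KD, against 5.31% and 14.2% over all tested genes. Paupar KD replicate 1 lay farthest from the control mean for 23 genes, replicate 2 for 6 and replicate 3 for 4. Replicate 1 was the highest of the 6 libraries for 16 of the 33 genes (48.5%, against 33.2% of all tested genes) and the lowest for 8 (24.2%, against 32.6%). In 8 genes it exceeded the other 5 libraries by more than their whole range, namely Slc25a3, Slc25a4, Slc25a10, Slc25a20, Slc25a22, Slc25a28, Slc25a29 and Slc25a35, which is 24.2% of the family against 12.1% of all tested genes. In Slc25a46 alone it lay below the other 5 by more than their range, 3.03% of the family against 9.05% of all tested genes. Replicate 1 also had the lowest total count of the 6 libraries, and the part of depth in these values was not tested. Over the 33 genes, log2 differences from the mean of the controls had medians of 0.10, -0.02 and -0.04 in Paupar KD replicates 1 to 3.

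**Figure D5:**
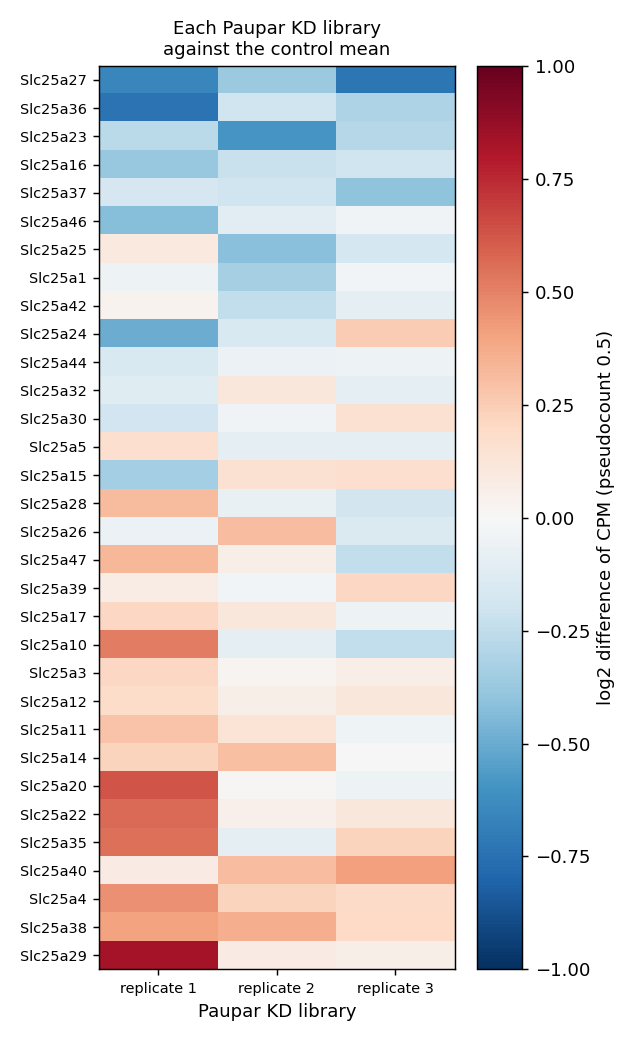
Log2 difference of 32 of the 33 SLC25 genes from their control mean in each Paupar KD library (pseudocount 0.5 CPM), red for higher and blue for lower. Replicate 1 holds the strongest colours for most genes. Of the 33 genes, 17 had all 3 libraries on the same side of the control mean. Among them, Slc25a27, Slc25a23, Slc25a16 and Slc25a37 are blue and Slc25a38 and Slc25a4 red.

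Proteins of the SLC25 family whose genes carry other symbols in these counts gave 0 edgeR calls either way in 5 tested genes, and 0 with DESeq2. At an unadjusted p under 0.05 edgeR had 2 of the 5 (17.7% of all tested genes). Groups did not overlap for 2 of the 5, both higher (13.7% of all tested genes). All 5 log2 fold changes were positive, though those of Mtch1, Mtch2 and Mcart1 turned with a library left out. Mcart6 (now Slc25a53) had the smallest p, at 29.4, 30.4 and 28.8 CPM in control KD and at 49.8, 39.6 and 31.8 CPM in Paupar KD, without overlap (edgeR adjusted p = 0.223). Limma-voom with quality weights called it higher (adjusted p = 0.019). The others were named after their values were seen. Ucp2, the uncoupling protein gene most studied in beta cells, was at 73.3, 75.6 and 74.3 CPM in control KD and at 138.3, 86.7 and 84.5 CPM in Paupar KD. It did not overlap between groups and was highest in replicate 1 (log2 fold change 0.47 ± 0.18 SE, edgeR adjusted p = 0.253). Mtch1 and Mtch2, whose products sit in the outer membrane, were at 469 ± 3.68 and 512 ± 131 CPM (663, 438 and 434 CPM in Paupar KD replicates 1 to 3) and at 381 ± 5.71 and 385 ± 22.0 CPM. Mcart1 (now Slc25a51, an NAD carrier) was at 111 ± 3.33 and 113 ± 10.1 CPM. Ucp1 and Ucp3 had too few counts to be tested.

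Genes that work with the carriers gave 0 edgeR calls in either direction in each of 5 lists, whereas other tools called some. For comparison with each list, DESeq2 called 3.9% of all tested genes and limma-voom with quality weights 13%. EdgeR had 17.7% of all tested genes at an unadjusted p under 0.05. Carriers reach the inner membrane through the TOM complex, small TIM chaperones and the TIM22 complex, and 11 of 15 tested genes of this import route had positive log2 fold changes, with a median of 0.23. Groups did not overlap for 6 of the 15, all higher in Paupar KD, a direction in which 13.7% of all tested genes lay apart. Tomm40, the channel of the TOM complex, had the smallest p. It was at 60.9, 51.9 and 57.9 CPM in control KD and at 96.0, 78.7 and 76.0 CPM in Paupar KD, 3 of 3 above the controls (log2 fold change 0.55 ± 0.12 SE, edgeR adjusted p = 0.119). DESeq2 called it higher (adjusted p = 0.00481), the 1 gene it called in this list. Limma-voom with quality weights called 3 of the 15 higher, Tomm40 (adjusted p = 0.0056), Timm8b and Fxc1, and 2 lower, Tomm20 and Timm8a1. At an unadjusted p under 0.05 edgeR had 6 of the 15, against the 17.7% of all tested genes.

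Of 16 enzymes that act on the substrates of the carrier shuttles, 7 had positive and 9 negative log2 fold changes (median -0.02). Got2, the mitochondrial aspartate aminotransferase of the malate-aspartate shuttle, had the smallest p, at 70.4, 69.1 and 71.2 CPM in control KD and at 86.4, 87.3 and 95.5 CPM in Paupar KD. These groups were well apart and replicate 1 was the lowest Paupar KD library (log2 fold change of 0.35 ± 0.08 SE; edgeR adjusted p = 0.134). DESeq2 called Got2 (adjusted p = 0.0135) and Mdh2 higher. Limma-voom with quality weights called 3 higher, Got2 (adjusted p = 0.010), Mdh2 and Gpd2, and 2 lower (13% of all tested genes). EdgeR had 2 of the 16 at an unadjusted p under 0.05 (17.7% of all tested genes). Groups did not overlap for 2 higher and 1 lower of the 16 (13.7% and 13.3% of all tested genes). Of 22 other mitochondrial transporters 9 were positive and 13 negative, with a median of -0.07. The smallest p there was that of 1500032L24Rik (now Smdt1), a subunit of the mitochondrial calcium uniporter, at 74.4 ± 6.15 and 95.2 ± 12.4 CPM (edgeR adjusted p = 0.214). DESeq2 called 0 of the 22, and limma-voom with quality weights called this gene higher (adjusted p = 0.044) and Vdac1 lower. EdgeR had 2 of the 22 at an unadjusted p under 0.05 (17.7% of all tested genes). Groups did not overlap for 4 higher and 4 lower of the 22 (13.7% and 13.3% of all tested genes).

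Of 11 tested genes of iron-sulfur and heme synthesis, which use the iron and glycine that mitoferrins and Slc25a38 bring in, 6 were positive and 5 negative, with a median of 0.05. Isca1, an iron-sulfur assembly factor, had the smallest p, at 49.6 ± 3.16 and 61.2 ± 3.72 CPM (edgeR adjusted p = 0.184). It was the 1 gene of the list at an unadjusted p under 0.05 in edgeR, and the 1 called by limma-voom with quality weights (adjusted p = 0.026), with 0 called by DESeq2. Groups did not overlap for 3 higher and 2 lower of the 11, against 13.7% and 13.3% of all tested genes. Of 8 regulators of mitochondrial biogenesis 4 were positive and 4 negative. Of these, 0 of 8 were apart between groups, against 27.1% of all tested genes. Their smallest p was that of Pprc1, a coactivator of the PGC-1 family, at 102 ± 9.94 and 89.9 ± 9.38 CPM (edgeR adjusted p = 0.398). EdgeR, DESeq2 and limma-voom with quality weights called 0 of the 8, and 0 had an unadjusted p under 0.05 in edgeR.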

How the data were processed

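Messenger RNA of 6 MIN6 libraries, 3 per group, was measured by sequencing. The authors deposited a raw read count per gene symbol for each library, without normalization. Per the submitters' processing notes, the tools were CASAVA 1.8.2, HISAT2, HTSeq and DESeq2 and the build mm9. Read length, strand setting and annotation: not given in the sources used here.

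The test was that of edgeR 4.0.16 under R 4.3.3 on these counts: filterByExpr (minimum count 10), TMM scaling and the quasi-likelihood test with robust estimation, over all 13039 genes kept, at an adjusted p of 0.05. The standard error is the log2 fold change divided by the square root of F. CPM are TMM-scaled, and levels are mean ± SD. Alternatives used other scaling factors and filters, DESeq2 1.42.0, limma 3.58.1 (voom), a replicate block and leaving out each library. The fit was tested on simulated counts. Counts of the controls differed by more than sampling noise (mean chi-square per gene 3.35 to 8.03, where sampling alone gives 1), which does not tell repeat libraries of 1 culture from separate cultures.

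Members and lists were chosen with earlier results of these data known. Every SLC25 gene with a mean of at least 1 CPM is named, except 1 that is counted but not reported here or drawn in the figures. Values by library are given for the 5 highest per kilobase, the pairs of paralogs and others chosen after their values were seen. Except for the gene not reported, they are also given for the 5 positive and the 5 negative log2 fold changes with the smallest p. From each other list, the gene with the smallest p is named. Exon lengths, positions and coding sequences are from GENCODE M1 on NCBIM37, which is mm9; all 44 symbols matched.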

Additional observations from a re-analysis of the deposited data

How the results depend on the processing

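Of the 33 SLC25 genes, 23 kept the sign of their log2 fold change in each of 16 alternatives and 6 were called in at least 1. Counts of genes called higher and lower in Paupar KD over all tested genes, 5 and 1 as reported, depended on the setting. Upper-quartile factors gave 3 and 0, testing every gene gave 36 and 24, and requiring a mean of 1 CPM gave 2 and 0. DESeq2 gave 275 and 233, limma-voom weighted by library quality gave 745 and 950, and a threshold of 0.1 gave 55 and 38. Leaving out each library gave 0 to 611 higher and 0 to 745 lower, the highest without Paupar KD replicate 3. Without replicate 1 of Paupar KD there were 123 and 128, and without replicate 2 or any control 0 and 0. SLC25 genes called, 0 and 0 as reported, were 1 lower with DESeq2 (Slc25a27) and 3 higher (Slc25a4, Slc25a38, Slc25a40) and 3 lower (Slc25a23, Slc25a25, Slc25a27) with quality weights. They were 0 to 1 higher and 0 to 1 lower with a library left out. SLC25 genes whose groups did not overlap were then 5 to 9 higher and 6 to 10 lower, with 9 higher without Paupar KD replicate 2 (17.9% of all tested genes) or 3 (24.5%) and 10 lower without replicate 1 (20.4%). Fewer libraries make such separation easier. Without replicate 1 and with the 6-library scaling kept, an alternative chosen after seeing the data, 6 were higher and 10 lower, against 19.8% and 19.5% of all tested genes. The log2 difference in the Slc25a4 to Slc25a5 ratio was 0.26 to 0.32 with a library left out, also chosen after seeing the data.

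Signs of 10 SLC25 genes turned in at least 1 alternative. Slc25a5 was at -3.23e-04 with RLE factors, -0.013 without a filter, -0.0078 under the mean-CPM filter, -3.98e-04 with DESeq2, -0.0036 with limma-voom, -0.077 with quality weights and -0.0038 with the replicate block. Slc25a30 was at 0.010 with upper-quartile factors and Slc25a15 at -6.16e-04 without a filter. With quality weights Slc25a10 was at -0.052, Slc25a28 at -0.045, Slc25a32 at 0.066 and Mtch1 at -0.041. With a library left out the log2 fold change was -0.10 to 0.043 for Slc25a5, -0.17 to 0.24 for Slc25a10, -0.072 to 0.15 for Slc25a15, -0.030 to 0.35 for Slc25a20, -0.32 to 0.060 for Slc25a24 and -0.12 to 0.16 for Slc25a26. It was -0.14 to 0.13 for Slc25a28, -0.12 to 0.060 for Slc25a30, -0.12 to 0.0052 for Slc25a32 and -0.13 to 0.23 for Slc25a47. It was -0.11 to 0.23 for Mtch1, -0.022 to 0.063 for Mtch2 and -0.046 to 0.077 for Mcart1. The cause was not tested.

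The replicate block gave 1 higher and 0 lower gene over all tested genes, and 0 and 0 SLC25 genes. Deviations of same-numbered libraries correlated by 0.09, 0.02 and 0.02, and those of differently numbered libraries by -0.09 to 0.07. These deviations also carry the spread within each group, so they cannot decide whether same-numbered libraries shared a culture or batch. That was not tested. Of the Paupar KD libraries, only replicate 1 correlated best with its own number.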
